A study of Mus musculus with 34 samples.

Results

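The collagen, laminin and integrin genes of the mouse were followed through 34 RNA sequencing libraries of hippocampus. The families were picked with earlier results of these data known, and members were then taken by gene symbol. They are any collagen alpha chain, any laminin alpha, beta or gamma chain, and any symbol starting with Itga or Itgb, with a count in at least 1 library. This gave 87 of the 24485 symbols in the tables, of which 20372 had a count. The 87 are 44 collagen chains, 11 laminin chains, 26 integrin chains and 6 genes that match by name only. Those 6 are Col4a3bp, which encodes a ceramide transfer protein, and Itgb1bp1, Itgb1bp2, Itgb3bp, Itgbl1 and Itgb2l. Hippocampus had a count for 87 members, mossy cells for 86 and granule cells for 85.

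The mice were labelled WT and had received fluoxetine, a selective serotonin reuptake inhibitor, or vehicle. Granule-cell libraries, from the main excitatory neuron of the dentate gyrus, numbered 4 with fluoxetine and 4 with vehicle. Mossy-cell libraries (labelled "Moosy cells"), from excitatory neurons of the dentate hilus, numbered 7 with fluoxetine and 6 with vehicle, and libraries labelled Hippocampus likewise numbered 7 and 6. RNA came from translating ribosome affinity purification (TRAP), in which tagged ribosomes are pulled down with the mRNA they carry. The labels do not give the driver of the ribosome tag, the strain, age, dose or duration, or whether the hippocampus libraries hold bound or input RNA. They also do not say that replicates are separate animals, so the p-values measure only the spread between these libraries.

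Collagens are secreted trimers that build fibrils, networks or microfilaments in the extracellular matrix, and a few stay anchored in the cell membrane. Laminins are trimers of an alpha, a beta and a gamma chain that, with type IV collagen, form the basement membrane around brain vessels. Integrins are receptors of an alpha and a beta chain that bind collagens, laminins, fibronectin and other ligands, and in neurons they take part in process growth and synaptic plasticity.

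Total counts were 14.1 to 40.0 M per library in granule cells, 23.6 to 43.5 M in mossy cells and 23.9 to 45.0 M in hippocampus, and members held 0.024% to 0.0665% of them. Levels are in CPM, the counts scaled to a common TMM library size. Against hippocampus under vehicle, 8 of 8 granule-cell markers were higher in granule cells. In mossy cells 6 of 8 mossy-cell markers were higher and 2 were lower, and 7 of 8 interneuron markers were higher. Under vehicle the mossy-cell markers summed to 479 ± 59.1 CPM in mossy cells and 110 ± 4.61 CPM in hippocampus (SD). Interneuron markers summed to 3559 ± 452 and 540 ± 25.3 CPM, and 6 CA1 pyramidal cell markers to 661 ± 140 and 348 ± 25.1 CPM (SD). Some libraries stood apart in markers of other cells. The summed level of 8 choroid plexus markers was 3641, 5382 and 1471 CPM in hippocampus vehicle libraries 1, 2 and 4, and 23.3 to 32.5 CPM in the other 3. In mossy-cell vehicle libraries 1, 2 and 4 it was 234, 283 and 46.3 CPM, and 4.24 to 6.12 CPM in the other 3. Fluoxetine library 4 had the most astrocyte and microglia marker signal of its group both in hippocampus, at 5744 and 274 CPM, and in mossy cells, at 1387 and 115 CPM. Of the marker lists of other cells, 0 genes were at 0 in all libraries of any group.

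Most members were low. Under vehicle, 11 members averaged at least 10 CPM in granule cells and 42 under 1 CPM, while mossy cells had 8 and 53 such members and hippocampus 11 and 45. The 10 highest held 70.2% of the summed member level in hippocampus, 73.1% in mossy cells and 72.1% in granule cells. Levels of different genes were compared per kilobase of transcript. The name-only matches Col4a3bp and Itgb1bp1 led in each source on that scale. Among true chains, the order in granule cells under vehicle was Itgb1 at 6.06 ± 2.4, Itga4 at 5.85 ± 1.2, Col25a1 at 4.50 ± 1.8, Itgav at 4.48 ± 0.74 and Lamc1 at 3.21 ± 0.57 CPM per kb (SD, n = 4). Itgb1 is the beta chain shared by most matrix-binding integrins, and Itga4 pairs with it to bind fibronectin and VCAM. In mossy cells the order was Col25a1 at 5.43 ± 0.39, Col19a1 at 2.96 ± 0.31, Itga3 at 2.83 ± 0.70, Lamb1 at 2.49 ± 0.22 and Itgb1 at 2.48 ± 0.21 CPM per kb (SD, n = 6). Col25a1 encodes a neuronal transmembrane collagen found in amyloid plaques, and Col19a1 a collagen XIX chain known from mouse hippocampal interneurons. In hippocampus the order was Itga4 at 4.07 ± 0.40, Col25a1 at 4.05 ± 0.60, Itgb1 at 3.78 ± 0.40, Lamc1 at 2.74 ± 0.27 and Itgav at 2.60 ± 0.19 CPM per kb (SD, n = 6). Neighbours in these orders differed by more than their summed SD at one step in mossy cells, Col25a1 over Col19a1, and at one step in hippocampus, Itgb1 over Lamc1.

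**Figure D1:**
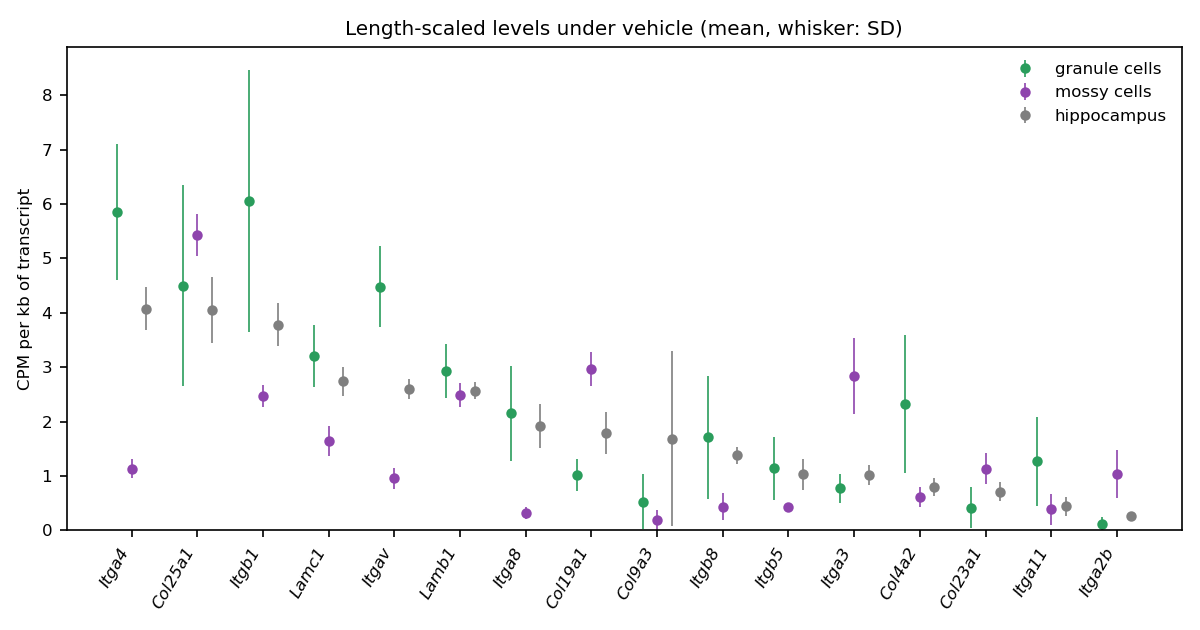
Length-scaled levels (CPM per kb, mean with SD) of the 16 chains that reached 1 CPM per kb in at least 1 source, in vehicle libraries of granule cells (n = 4), mossy cells (n = 6) and hippocampus (n = 6). Itga4 averages 1.14 ± 0.17 CPM per kb in mossy cells, against 4.07 ± 0.40 in hippocampus.

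The first comparison set fluoxetine against vehicle within each source. In hippocampus 74 members passed the filter on low counts, of which 20 rose, 2 fell and 52 did not pass an adjusted p of 0.05 (edgeR quasi-likelihood test, Benjamini-Hochberg over all genes). Of all 15596 genes tested there, 30.2% were called, 15.5% higher and 14.7% lower. The called share of the members, 29.7%, was near that background, with 27% higher and 2.7% lower. After a correction for the length and GC content of transcripts, 14 members were higher and 3 lower there, and 1674 of 4780 called genes were higher. In mossy cells 54 members were tested, 5 rose and 0 fell, a share of 9.26%, beside 9.31% of 14229 genes, 8.05% higher and 1.26% lower. In granule cells 54 members were tested and 0 were called, beside 0.0% of 14236 genes. There 5 members had an unadjusted p under 0.05, and DESeq2 called 1. Neither count has a share of all genes beside it. The median log2 change of the tested members was 0.35 for granule cells, 0.39 for mossy cells and 0.35 for hippocampus, against 0.0095, -0.0033 and 0.0013 over all genes. Fewer cells of a type and less RNA per cell cannot be told apart in such bulk libraries. Same-numbered mossy-cell and hippocampus libraries deviated together, so a change in both of these sources is not 2 independent findings.

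Summed by family, levels were above vehicle in each source. The collagens summed to 125 ± 26.8 CPM with fluoxetine and 88.7 ± 18.4 CPM with vehicle in granule cells (SD, n = 4 each), to 92.8 ± 10.7 and 77.7 ± 4.17 CPM in mossy cells, and to 106 ± 12.7 and 81.2 ± 9.49 CPM in hippocampus (SD, n = 7 and 6). The integrins summed to 256 ± 30.6 CPM with fluoxetine and 176 ± 15.7 CPM with vehicle in granule cells, to 99.98 ± 32.9 and 66.0 ± 10.6 CPM in mossy cells, and to 169.7 ± 37.1 and 129 ± 3.78 CPM in hippocampus. These sums are descriptions and carry no test.

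Among the collagens, 11 of 35 tested in hippocampus rose and 1 fell. Both main chains of collagen IV, the network collagen of basement membranes, were among the higher ones. Col4a1 had 3.95, 6.34 and 9.26 CPM with fluoxetine, against 2.93, 3.38 and 4.05 CPM with vehicle in hippocampus, given as lowest, median and highest. Of the 7 fluoxetine libraries, 6 lay above every vehicle library, and the log2 change was 0.92 ± 0.18 (SE, adjusted p = 0.00198, edgeR). Col4a2 had 5.60, 10.1 and 11.1 CPM with fluoxetine, against 3.83, 5.21 and 6.84 CPM with vehicle, with 5 of 7 fluoxetine libraries above every vehicle library and a log2 change of 0.78 ± 0.17 (SE, adjusted p = 0.00333, edgeR). Without vehicle libraries 1, 2 and 4 the change was 1.04 for Col4a1 (adjusted p = 0.0257, edgeR) and 0.58 for Col4a2, whose call ended (adjusted p = 0.0757, edgeR). The other 4 collagen IV chains, Col4a3 to Col4a6, averaged under 1 CPM in each vehicle group.

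Col4a1 and Col4a2 lie head to head on chromosome 8, and their RefSeq first exons overlap by 22 bases at chr8:11312805-11312826 (GRCm38.p6). That stretch is shown, on the plus strand of Col4a2, because one start region serves both genes, and its capitals mark a GC box, GGGCGG.
Col4a1 and Col4a2 shared start: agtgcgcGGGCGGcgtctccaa
GGGCGG was found, on either strand of the 250 bases before the start, in 32.7% of 32851 RefSeq promoter windows and in 47.1% of the 68 windows of the 62 members matched. The shared stretch lies after both starts, outside such windows, so these shares are no background for its GC box. The shared bases are 0.295% of the exon bases of Col4a1 and 0.332% of those of Col4a2, and the strand setting of the counting is not given in the sources used here.

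Collagen VI forms beaded microfilaments, and 2 of its 5 tested chains rose in hippocampus. Col6a1 had 1.28, 3.84 and 7.58 CPM with fluoxetine, against 0.695, 1.64 and 2.95 CPM with vehicle, with 5 of 7 fluoxetine libraries above every vehicle library. The log2 change was 1.37 ± 0.34 (SE, adjusted p = 0.00746, edgeR), and 1.45 without vehicle libraries 1, 2 and 4 (adjusted p = 0.073, edgeR). Col6a2 changed by 0.83 ± 0.30 (SE, adjusted p = 0.0469, edgeR) on the log2 scale, and Col6a3 had 0.87 ± 0.36 (SE, adjusted p = 0.0754, edgeR), which did not pass. In granule cells Col6a1 had the smallest p of all members, with 7.18, 7.08, 10.7 and 11.8 CPM with fluoxetine, against 1.12, 1.93, 1.06 and 1.55 CPM with vehicle in libraries 1 to 4. The groups did not overlap, but the log2 change of 2.68 ± 0.50 (SE, adjusted p = 0.323, edgeR) was not called. How many of all genes separate 4 from 4 granule-cell libraries was not counted. Such separation, here and for the genes below, is a description only.

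Collagens that attach to fibrils without forming them (FACIT) had 3 of 8 tested members higher in hippocampus. Col19a1 had 8.18, 12.8 and 17.9 CPM with fluoxetine, against 5.07, 7.62 and 10.1 CPM with vehicle, and 5 of 7 fluoxetine libraries lay above every vehicle library. It changed by 0.75 ± 0.17 (SE, adjusted p = 0.00508, edgeR) on the log2 scale, and by 0.71 without vehicle libraries 1, 2 and 4 (adjusted p = 0.0481, edgeR). In mossy cells Col19a1 had 7.36, 11.7 and 18.7 CPM with fluoxetine, against 11.3, 12.3 and 15.0 CPM with vehicle, with the vehicle range inside the fluoxetine range. In granule cells Col19a1 had 6.79, 7.34, 13.2 and 14.5 CPM with fluoxetine, against 4.95, 5.75, 3.97 and 2.82 CPM with vehicle, without overlap, and a log2 change of 1.24 ± 0.44 (SE, adjusted p = 0.54, edgeR) that was not called. Col12a1 and Col20a1 rose in hippocampus by 0.70 ± 0.19 (SE, adjusted p = 0.0135, edgeR) and 0.61 ± 0.18 (SE, adjusted p = 0.02, edgeR) on the log2 scale.

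Fibrillar collagens make the banded fibrils of connective tissue, and 3 of 9 tested rose in hippocampus, all of them chains of the minor fibril types V and XI. Col11a1 had 0.924, 1.96 and 4.08 CPM with fluoxetine, against 0.440, 0.759 and 1.63 CPM with vehicle, with 5 of 7 fluoxetine libraries above every vehicle library, and a log2 change of 1.16 ± 0.35 (SE, adjusted p = 0.0193, edgeR). Col11a2 and Col5a1 rose by 1.17 ± 0.29 (SE, adjusted p = 0.00681, edgeR) and 0.83 ± 0.28 (SE, adjusted p = 0.0303, edgeR). The main fibril chains did not pass, with log2 changes of 0.67 ± 0.34 for Col1a1, 0.30 ± 0.39 for Col1a2 and 0.96 ± 0.63 for Col3a1 (SE). Of 8 fibroblast and meningeal markers 0 were higher and 1 was lower there, and they summed to 49.4 to 70.5 CPM with fluoxetine and 37.2 to 163 CPM with vehicle. In mossy cells 0 fibrillar collagens passed the filter, and in granule cells 6 did and 0 were called.

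Col15a1, a collagen of basement membranes, rose by 1.07 ± 0.38 (SE, adjusted p = 0.0405, edgeR) on the log2 scale in hippocampus. Col8a1, a short network-forming chain, was the collagen that fell. It had 0.334, 0.562 and 0.945 CPM with fluoxetine, against 0.291, 0.902 and 4.81 CPM with vehicle, and every fluoxetine library lay within the vehicle range. Its log2 change of -1.83 ± 0.53 (SE, adjusted p = 0.0164, edgeR) became 0.0071 without vehicle libraries 1, 2 and 4 (adjusted p = 0.993, edgeR), the libraries with the high choroid plexus sums.

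In mossy cells 2 of 19 tested collagens rose and 0 fell. Col4a2 had 4.08, 9.39 and 18.5 CPM with fluoxetine, against 1.83, 4.31 and 4.92 CPM with vehicle, and 5 of 7 fluoxetine libraries lay above every vehicle library. The log2 change was 1.27 ± 0.33 (SE, adjusted p = 0.019, edgeR), and it was 0.18 ± 0.52 (SE, adjusted p = 0.876, edgeR) for Col4a1, which was not called. The Col4a2 call ended without vehicle library 2 and without fluoxetine libraries 2 and 4. It also ended after the length and GC correction and with the replicate number as a block. Col23a1, a transmembrane collagen, had 7.66, 11.2 and 15.8 CPM with fluoxetine, against 4.89, 6.08 and 9.23 CPM with vehicle, with 5 of 7 fluoxetine libraries above every vehicle library and a log2 change of 0.78 ± 0.19 (SE, adjusted p = 0.0144, edgeR). Col25a1, the highest collagen per kilobase, had 20.3, 35.6 and 39.8 CPM with fluoxetine, against 32.9, 36.1 and 40.9 CPM with vehicle in mossy cells, with wide overlap. Its log2 change was 0.13 ± 0.12 in hippocampus, -0.09 ± 0.13 in mossy cells and 0.08 ± 0.32 in granule cells (SE), and none passed.

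**Figure D2:**
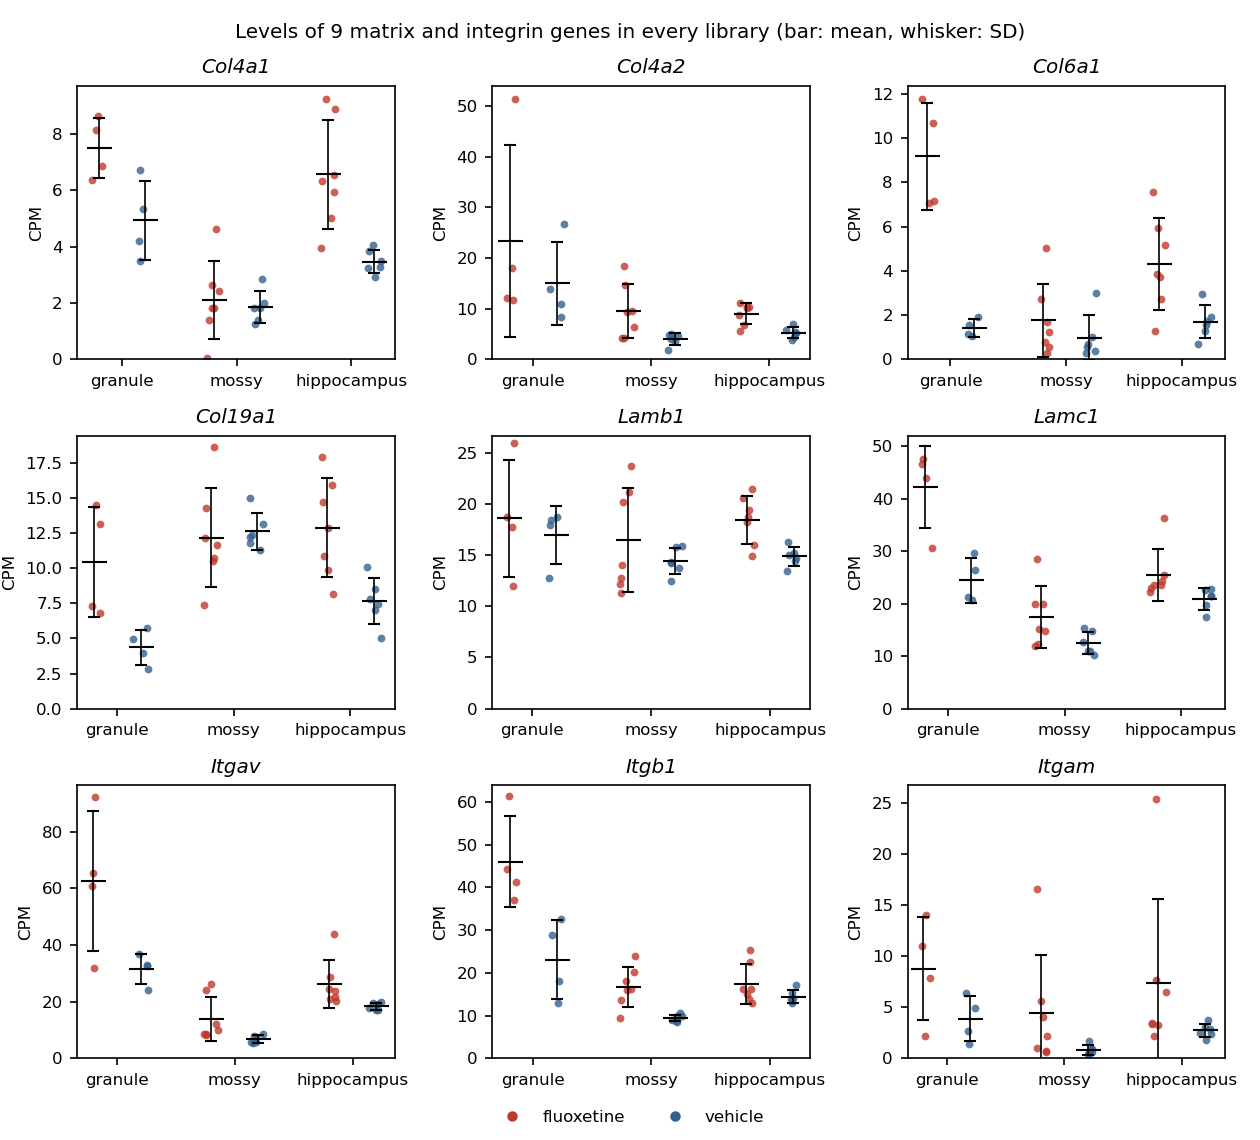
CPM of 9 genes in every library, with fluoxetine (red) left of vehicle (blue) by source (granule cells, mossy cells, hippocampus); the bar is the mean and the whisker the SD. In hippocampus 6 of 7 fluoxetine libraries exceed all vehicle libraries for Col4a1, and 1 fluoxetine library stands far above the others for Itgam in hippocampus and in mossy cells.

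All 11 laminin chains were tested in each source; 2 rose in hippocampus, and 0 were called in mossy or granule cells. Lamb1 and Lamc1 encode chains shared by many laminin trimers. Lamb1 had 14.9, 18.7 and 21.5 CPM with fluoxetine, against 13.5, 14.9 and 16.3 CPM with vehicle in hippocampus, with 5 of 7 fluoxetine libraries above every vehicle library and a log2 change of 0.31 ± 0.09 (SE, adjusted p = 0.0126, edgeR). Lamc1 had 22.1, 23.6 and 36.4 CPM with fluoxetine, against 17.4, 21.5 and 22.9 CPM with vehicle, with 6 of 7 above every vehicle library. It changed by 0.29 ± 0.10 (SE, adjusted p = 0.0468, edgeR) on the log2 scale, and by 0.19 without fluoxetine library 4 (adjusted p = 0.0616, edgeR). Without vehicle libraries 1, 2 and 4 both calls ended, at 0.29 for Lamb1 and 0.27 for Lamc1 (adjusted p = 0.111 and 0.198, edgeR). Both calls also ended after the correction for length and GC content, and that of Lamc1 with limma-voom and without the filter too. Lama2, the alpha chain of laminin made by astrocytes and muscle, had 0.49 ± 0.20 (SE, adjusted p = 0.0654, edgeR) and was not called.

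In granule cells Lamc1 had 46.5, 30.6, 44.0 and 47.5 CPM with fluoxetine, against 20.6, 26.4, 29.6 and 21.2 CPM with vehicle, without overlap. The log2 change of 0.77 ± 0.24 (SE, adjusted p = 0.459, edgeR) was not called.

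Among integrin chains, 7 of 24 tested rose in hippocampus, 3 of 20 in mossy cells and 0 of 17 in granule cells, and 0 fell in any source. Of the 3 laminin-binding alpha chains 2 rose in hippocampus. Itga7 had 3.75, 4.59 and 7.43 CPM with fluoxetine, against 2.29, 2.71 and 3.18 CPM with vehicle, and every fluoxetine library lay above every vehicle library. The log2 change of Itga7 was 0.86 ± 0.17 (SE, adjusted p = 0.00202, edgeR), and 0.81 without vehicle libraries 1, 2 and 4 (adjusted p = 0.0417, edgeR). Itga6 had 2.99, 4.08 and 7.59 CPM with fluoxetine, against 2.17, 2.58 and 3.06 CPM with vehicle, with 6 of 7 fluoxetine libraries above every vehicle library and a log2 change of 0.86 ± 0.21 (SE, adjusted p = 0.00609, edgeR). In mossy cells the log2 changes were 0.72 ± 0.30 for Itga7, 0.97 ± 0.45 for Itga6 and 0.49 ± 0.19 for Itga3 (SE), and none passed.

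Alpha chains that bind the RGD motif of fibronectin and vitronectin had 2 of 4 tested members higher in hippocampus. Itgav had 20.1, 23.7 and 44.0 CPM with fluoxetine, against 16.9, 18.5 and 19.7 CPM with vehicle, without overlap. Its change was 0.51 ± 0.15 (SE, adjusted p = 0.014, edgeR) on the log2 scale, and 0.35 without fluoxetine library 4 (adjusted p = 0.00751, edgeR). In mossy cells Itgav had 8.09, 10.1 and 26.1 CPM with fluoxetine, against 5.42, 6.56 and 8.47 CPM with vehicle, with 5 of 7 fluoxetine libraries above every vehicle library. The log2 change was 1.05 ± 0.27 (SE, adjusted p = 0.0197, edgeR), and 0.81 without fluoxetine library 4, where the call ended (adjusted p = 0.0531, edgeR). In granule cells Itgav had 60.8, 65.3, 92.1 and 32.0 CPM with fluoxetine, against 32.4, 33.0, 36.7 and 24.2 CPM with vehicle, and fluoxetine library 4 lay within the vehicle range. Its log2 change of 0.97 ± 0.29 (SE, adjusted p = 0.432, edgeR) was not called. Itga8, a receptor chain for nephronectin, had 12.9, 16.4 and 20.2 CPM with fluoxetine, against 8.53, 10.6 and 14.6 CPM with vehicle in hippocampus, a log2 change of 0.57 ± 0.14 (SE, adjusted p = 0.00666, edgeR), and 4 of 7 fluoxetine libraries lay above every vehicle library.

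Itgb1 rose in mossy cells, where it had 9.35, 16.1 and 23.9 CPM with fluoxetine, against 8.6, 9.41 and 10.5 CPM with vehicle. Of 7 fluoxetine libraries 6 lay above every vehicle library. Its log2 change was 0.83 ± 0.17 (SE, adjusted p = 0.00482, edgeR), and 0.77 without fluoxetine library 4 (adjusted p = 0.0119, edgeR). In hippocampus Itgb1 had 12.9, 16.1 and 25.3 CPM with fluoxetine, against 12.9, 13.9 and 17.1 CPM with vehicle, with a log2 change of 0.27 ± 0.14 (SE, adjusted p = 0.14, edgeR) that was not called. In granule cells it had 61.3, 37.0, 44.3 and 41.3 CPM with fluoxetine, against 12.9, 28.8, 32.7 and 18.2 CPM with vehicle, without overlap, and a log2 change of 0.98 ± 0.30 (SE, adjusted p = 0.443, edgeR), not called. Itgb8, which activates latent TGF-beta together with Itgav, had log2 changes of 0.35 ± 0.21 in hippocampus, 0.31 ± 0.40 in mossy cells and 0.41 ± 0.60 in granule cells (SE), and none passed.

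Itgav and Itgb1 encode partners in one receptor and were both called in mossy cells, so the 250 bases before each RefSeq start are shown. The GC box is again in capitals, and a CCAAT box and a TATA box (letters TATAAA) were searched for on either strand too. The Itgav stretch is chr2:83724147-83724396 and the Itgb1 stretch chr8:128685404-128685653, both on the plus strand of GRCm38.p6.
Itgav: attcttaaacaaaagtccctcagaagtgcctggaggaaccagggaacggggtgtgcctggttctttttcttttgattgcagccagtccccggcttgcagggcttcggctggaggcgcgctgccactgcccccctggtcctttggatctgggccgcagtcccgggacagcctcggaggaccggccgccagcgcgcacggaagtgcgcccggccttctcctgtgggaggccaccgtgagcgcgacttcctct
Itgb1: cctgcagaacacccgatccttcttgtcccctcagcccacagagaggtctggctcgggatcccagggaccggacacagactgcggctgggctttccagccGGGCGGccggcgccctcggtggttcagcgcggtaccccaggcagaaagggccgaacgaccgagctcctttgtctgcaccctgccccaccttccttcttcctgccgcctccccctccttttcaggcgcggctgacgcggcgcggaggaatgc
The 2 stretches are rich in G and C, at 64.4% for Itgav and 68.0% for Itgb1. The Itgb1 stretch holds 1 GC box and the Itgav stretch 0, and neither holds a CCAAT box or a TATA box. Among all windows of this length 33.8% hold a CCAAT box and 12.4% hold a TATA box.

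Leukocyte integrin chains, made in brain mainly by microglia, had 2 of 5 tested members higher in hippocampus and 1 of 5 in mossy cells. Itgam and Itgb2 pair to form a complement receptor. Itgam had 2.21, 3.48 and 25.4 CPM with fluoxetine, against 1.78, 2.68 and 3.73 CPM with vehicle in hippocampus, and only 3 of 7 fluoxetine libraries lay above every vehicle library. It changed by 1.44 ± 0.45 (SE, adjusted p = 0.0242, edgeR) on the log2 scale, and by 0.70 without fluoxetine library 4, where the call ended (adjusted p = 0.0528, edgeR). Itgb2 had 0.340, 0.723 and 3.65 CPM with fluoxetine, against 0.107, 0.303 and 0.782 CPM with vehicle, a log2 change of 1.77 ± 0.52 (SE, adjusted p = 0.0165, edgeR) that was 1.22 without that library (adjusted p = 0.043, edgeR). In mossy cells Itgam had 0.578, 2.16 and 16.6 CPM with fluoxetine, against 0.370, 0.750 and 1.65 CPM with vehicle, with 4 of 7 above every vehicle library. The log2 change there was 2.44 ± 0.66 (SE, adjusted p = 0.0247, edgeR), and 1.55 without fluoxetine library 4 (adjusted p = 0.0994, edgeR). In granule cells Itgam had 2.18, 11, 7.82 and 14 CPM with fluoxetine, against 6.34, 1.44, 2.70 and 4.92 CPM with vehicle, which overlap. In GENCODE M21 68.7% of the exon bases of Itgam are shared with Gm49368 on the same strand, so its counts depend on how the annotation, not given in the sources used here, treats that model. Itgb5, a partner of Itgav, had 3.59, 5.40 and 20.3 CPM with fluoxetine, against 2.25, 3.14 and 4.52 CPM with vehicle in hippocampus. Of 7 fluoxetine libraries 5 lay above every vehicle library. Its log2 change was 1.08 ± 0.34 (SE, adjusted p = 0.0225, edgeR), and 0.58 without fluoxetine library 4 (adjusted p = 0.0271, edgeR).

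Markers of some other cells were also called higher with fluoxetine. In hippocampus 8 of 9 microglia markers were called higher, and they summed to 54.5 to 274 CPM with fluoxetine and 35.5 to 44.6 CPM with vehicle. Astrocyte markers were called higher in 6 of 8, with sums of 1845 to 5744 CPM with fluoxetine and 1433 to 1771 CPM with vehicle. In mossy cells 4 of 8 tested microglia markers and 2 of 8 astrocyte markers were called higher, and microglia sums were 16.5 to 115 CPM with fluoxetine and 8.79 to 14.9 CPM with vehicle. Oligodendrocyte precursor markers had 1 of 5 called higher in mossy cells and summed to 20.96 to 135 CPM with fluoxetine and 13.6 to 39.1 CPM with vehicle, highest in fluoxetine libraries 4 and 7. In granule cells 0 markers of these cells were called, and microglia sums were 72.7 to 103 CPM with fluoxetine and 43.6 to 68.6 CPM with vehicle. Astrocyte sums there were 1329 to 1752 CPM with fluoxetine and 976 to 1163 CPM with vehicle, and granule-cell marker sums 1045 to 1164 CPM with fluoxetine and 1320.0 to 1511 CPM with vehicle. None of these 3 sums overlapped between the groups. Sums of 6 CA3 pyramidal cell markers, 748.7 to 831 CPM with fluoxetine and 578 to 746.6 CPM with vehicle, did not overlap either. Endothelial markers had 0 of 9 called in hippocampus, where they summed to 18.2 to 38.6 CPM with fluoxetine and 18.4 to 30.0 CPM with vehicle. The part of these cells in the changes of the members was not tested.

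**Figure D3:**
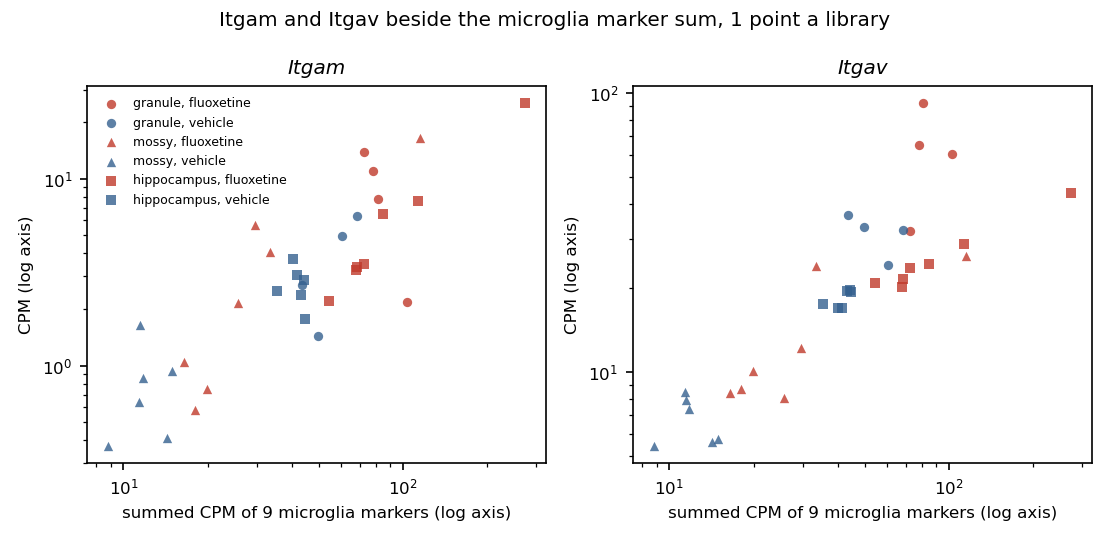
Itgam (left) and Itgav (right) in CPM against the summed CPM of 9 microglia markers, 1 point a library, both axes logarithmic, fluoxetine in red and vehicle in blue. Fluoxetine library 4 of hippocampus, at 274 CPM of markers, and of mossy cells, at 115 CPM, are at the upper right of their sources.

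Of the name-only matches, Col4a3bp fell in hippocampus. It had 73.6, 79.7 and 90.3 CPM with fluoxetine, against 82.3, 93.4 and 101 CPM with vehicle, a log2 change of -0.20 ± 0.06 (SE, adjusted p = 0.0228, edgeR), and the call ended without vehicle library 1, 2 or 3. Of the 22 calls in hippocampus, 15 held whichever single library was left out. The other 7 were Col8a1, lost without vehicle library 1 or 2, Itgam, Col4a3bp, Col5a1, Col15a1, Lamc1 and Col6a2, the last 4 lost in 5, 8, 7 and 10 of 13 such fits. Without vehicle libraries 1, 2 and 4, 5 of the 22 calls held, namely Col4a1, Col11a2, Col12a1, Col19a1 and Itga7. That fit has fewer vehicle libraries, and its calls over all genes are not given here. After the correction for length and GC content 16 held, and those of Col5a1, Col6a2, Col15a1, Col20a1, Lamb1 and Lamc1 ended. Of the 5 calls in mossy cells, Itgb1 and Col23a1 held whichever single library was left out, and 0 held without vehicle libraries 1, 2 and 4 or without vehicle libraries 3, 5 and 6. Those fits too had fewer vehicle libraries, and calls over all genes are not given beside them.

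**Figure D4:**
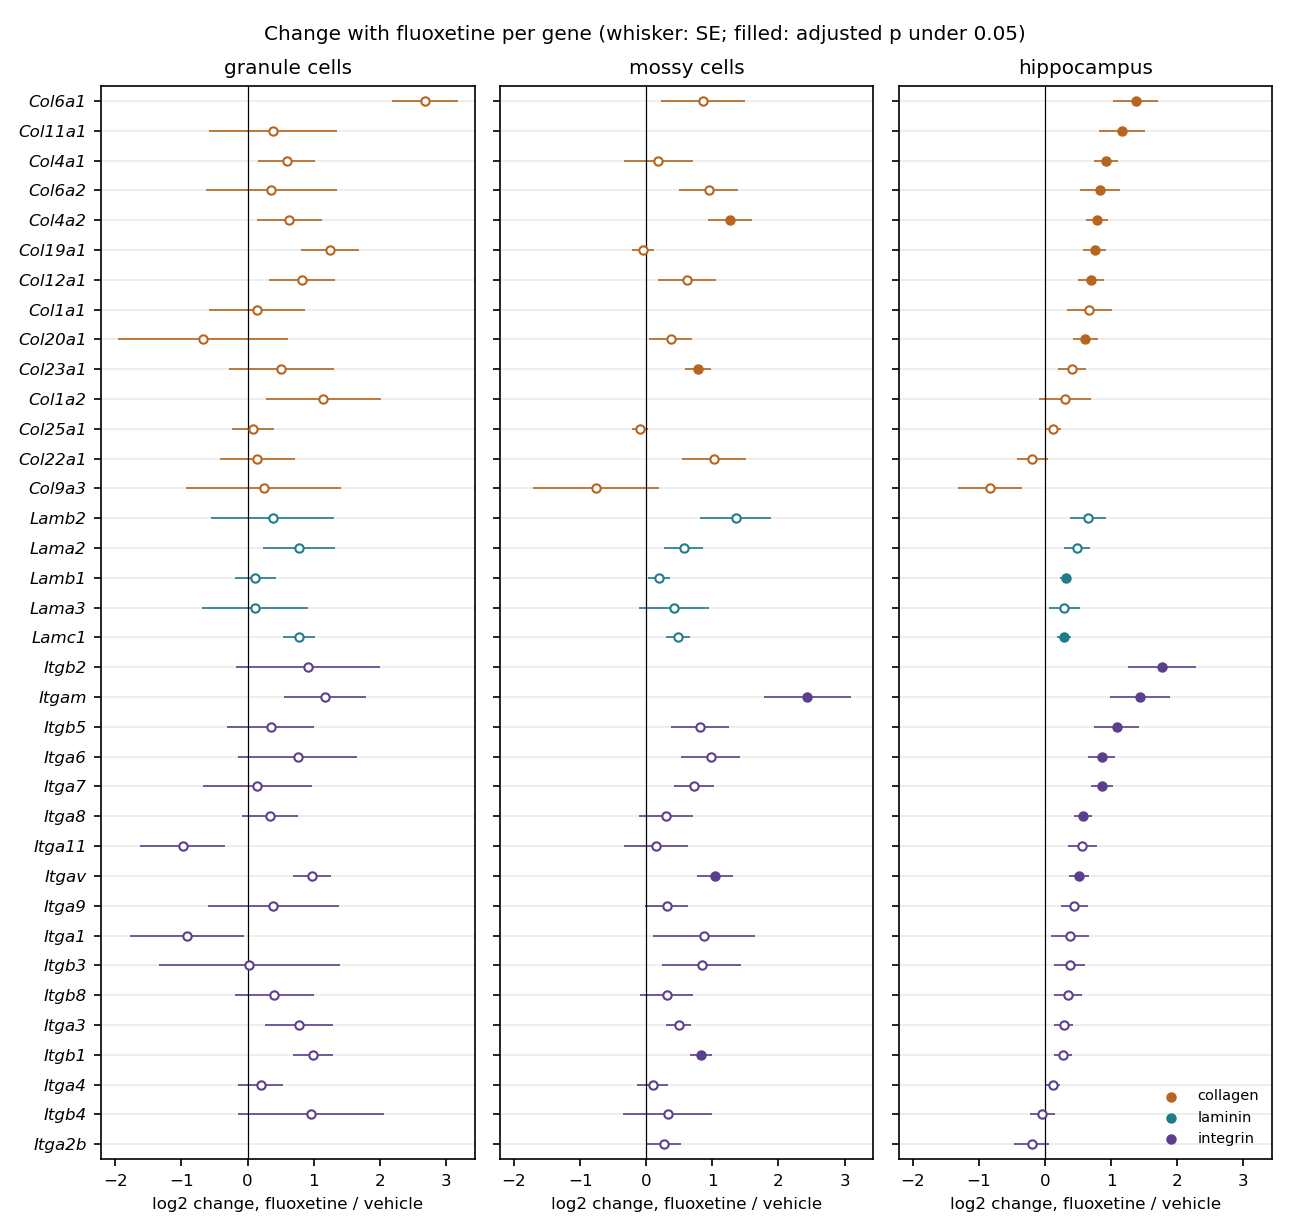
Log2 change with fluoxetine over vehicle (whisker: SE) of 36 chains that averaged at least 2 CPM in a group, in granule cells, mossy cells and hippocampus; filled points passed an adjusted p of 0.05, and a chain has no point where it was not tested. In granule cells 0 points are filled, and Itgav is filled in mossy cells, at 1.05, and in hippocampus, at 0.51.

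Fluoxetine changes were then set against each other between sources. The change in mossy cells minus that in hippocampus was called for 0 of 77 members, beside 0.044% of 15922 genes. The change in granule cells minus that in hippocampus was called for 0 of 78 members, beside 1.98% of 16124 genes, and granule cells minus mossy cells for 0 of 72 members, beside 0.181% of 15444 genes. At an unadjusted p under 0.05 these 3 contrasts held 5, 12 and 6 members, and DESeq2 called 0, 3 and 1. The shares of all genes above are for adjusted p with edgeR and cannot be set beside these counts. Among members averaging at least 1 CPM, the smallest p in the first contrast was that of Col19a1, with a difference of -0.78 ± 0.25 (SE, adjusted p = 0.244, edgeR), followed by Itgb1 with 0.58 ± 0.23 (SE, adjusted p = 0.336, edgeR). In granule cells minus hippocampus the smallest were Col27a1, a fibrillar chain, with -3.15 ± 0.90 (SE, adjusted p = 0.0605, edgeR), and Itga11, a collagen receptor chain, with -1.54 ± 0.59 (SE, adjusted p = 0.14, edgeR). In granule cells minus mossy cells it was Col19a1, with 1.31 ± 0.37 (SE, adjusted p = 0.118, edgeR). Itgb1, called in mossy cells and not in hippocampus, was thus not shown to differ between them. With the replicate number as a block, which pairs these libraries, the first contrast called 116 genes, 0 of them members, and Itgb1 was at 0.56 (adjusted p = 0.17, edgeR). Without granule-cell fluoxetine library 2, 5 members were called in granule cells minus hippocampus and 2 in granule cells minus mossy cells. In the first of these, 2 were called without granule-cell vehicle library 3, and 1 without vehicle library 1, vehicle library 2 or fluoxetine library 4. Calls over all genes in these fits are not given here, so the counts are descriptions.

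The second comparison set the sources against each other under vehicle. Mossy cells against hippocampus gave 9 of 77 tested members higher and 38 lower, with 30 not called. In mossy cells alone 54 members passed the filter, and in hippocampus alone 74. Many members were thus tested through their hippocampus level, which favours a lower call. Of all 15922 genes 64.0% were called, 31.3% higher and 32.8% lower, so the called share of members, 61%, was near the background, with 49.4% lower. The median log2 difference was -0.83 over members and -0.04 over all genes. After correcting for the length and GC content of transcripts the median over all genes was 0.25, 7075 of 10492 called genes were higher, and 10 members were higher and 30 lower. Granule-cell libraries come in a table of their own, and a difference of preparation or run cannot be told apart from the source.

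All 9 tested fibrillar collagens were lower in mossy cells than in hippocampus. In mossy cells alone 0 of them passed the filter, so they were tested here through their hippocampus level. That filter largely set the direction in advance, so the count is a description only. All but Col11a1 kept the call after the correction. Without vehicle libraries 1, 2 and 4 of both sources the calls of Col1a1, Col5a1 and Col5a3 ended. Col1a2, a chain of type I collagen, had 0.0400 to 0.333 CPM in mossy cells, against 0.630 to 4.80 CPM in hippocampus, without overlap, a log2 difference of -4.13 ± 0.54 (SE, adjusted p = 1.2e-07, edgeR). Col1a1 differed by -2.0 ± 0.71 (SE, adjusted p = 0.0156, edgeR). Col3a1 had 0 counts in all 6 mossy-cell vehicle libraries, against a mean of 0.513 CPM in hippocampus. A floor of 3 counts over the group is 0.0139 CPM of total counts, without TMM scaling, so no exact fold is given. With fluoxetine Col3a1 had 0.229 and 0.190 CPM in mossy-cell libraries 2 and 4. Of 6 tested collagen IV chains 4 were lower, Col4a3 to Col4a6, while Col4a1 and Col4a2, at -0.91 ± 0.41 and -0.40 ± 0.29 (SE), were not called. Col9a3, a FACIT chain, had 0.0273 to 1.62 CPM in mossy cells, against 9.62, 12.6 and 4.66 CPM in hippocampus libraries 1, 2 and 4, those with the high choroid plexus sums, and 1.17 to 1.46 CPM in the other 3. It differed by -3.22 ± 0.80 (SE, adjusted p = 0.000841, edgeR) on the log2 scale, and without vehicle libraries 1, 2 and 4 of both sources by -2.40, where the call ended (adjusted p = 0.0856, edgeR). Of its exon bases 6.07% lie opposite Tcfl5 in GENCODE M21. In the same contrast 8 of 9 endothelial, 8 of 8 mural, 8 of 9 microglia and 8 of 8 astrocyte markers were lower.

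Of 25 tested integrin chains 14 were lower and 2 higher in mossy cells. Itga4 had 9.58 to 14.1 CPM in mossy cells, against 34.1 to 43.9 CPM in hippocampus, without overlap, a log2 difference of -1.84 ± 0.21 (SE, adjusted p = 5.1e-09, edgeR). Itga8 had 1.24 to 3.12 CPM in mossy cells, against 8.53 to 14.6 CPM in hippocampus, without overlap, a difference of -2.55 ± 0.31 (SE, adjusted p = 2.4e-08, edgeR). Itgav and Itgb1 differed by -1.44 ± 0.25 (SE, adjusted p = 8.5e-06, edgeR) and -0.61 ± 0.17 (SE, adjusted p = 0.00204, edgeR). Itga1, a collagen receptor chain, Itgb4, the laminin receptor chain of hemidesmosomes, and Itgam differed by -2.22 ± 0.62, -2.17 ± 0.52 and -1.75 ± 0.65 (SE). Itgb1, Itgb3, Itgb4, Itgb5, Itgb6 and Itgb8, the 6 beta chains outside the leukocyte group, were all lower. After the correction for length and GC content Itgb1 and Itgb3 were not called.

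A small set was higher in mossy cells, where the interneuron and CA1 marker sums were higher as well. The part of those cells in any of these differences was not tested. Itga3, a laminin receptor chain, had 7.91 to 17.2 CPM in mossy cells, against 3.83 to 6.07 CPM in hippocampus, without overlap, a log2 difference of 1.47 ± 0.18 (SE, adjusted p = 4.2e-08, edgeR). Itga2b, best known from platelets, had 2.18 to 6.45 CPM in mossy cells, against 0.586 to 1.28 CPM in hippocampus, without overlap, a difference of 1.93 ± 0.27 (SE, adjusted p = 2.9e-07, edgeR). Col6a3 had 1.58 to 2.66 CPM in mossy cells, against 0.305 to 0.882 CPM in hippocampus, without overlap, a difference of 1.79 ± 0.42 (SE, adjusted p = 0.000445, edgeR). Lamb3, a laminin beta chain of epithelia, was higher by 1.68 ± 0.44 (SE, adjusted p = 0.00129, edgeR). Col19a1, Col23a1 and Col25a1 were higher by 0.72 ± 0.19, 0.67 ± 0.22 and 0.42 ± 0.13 (SE), in libraries where 7 of 8 interneuron markers were higher; their part was not tested. Without vehicle libraries 1, 2 and 4 of both sources 6 members were higher and 21 lower, and 26 of the 47 calls were kept. Those of Col1a1, Col9a3, Col23a1, Col25a1, Itgb1, Itgb3, Itgb5 and Itgam were among the ones lost. Fewer libraries entered that fit, and its calls over all genes are not given here.

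Granule cells against mossy cells gave 22 of 72 tested members higher and 7 lower, beside 46.1% of 15444 genes called, 23.8% higher and 22.4% lower. The called share of members was 40.3%, with 30.6% higher and 9.72% lower, and their median log2 difference was 0.56. Integrin chains made up 10 of the higher members, and the rest were collagens with Lama4 and Lamc1. Itgav had 32.4, 33.0, 36.7 and 24.2 CPM in granule cells, against 5.42 to 8.47 CPM in mossy cells, a log2 difference of 2.19 ± 0.31 (SE, adjusted p = 2.6e-06, edgeR). Itga4 had 68.1, 42.5, 52.0 and 66.1 CPM in granule cells, against 9.58 to 14.1 CPM in mossy cells, a difference of 2.33 ± 0.31 (SE, adjusted p = 1.1e-06, edgeR), and 8.04% of its exon bases lie opposite Cerkl in GENCODE M21. Itga8 and Itgb1 differed by 2.69 ± 0.45 (SE, adjusted p = 2.4e-05, edgeR) and 1.26 ± 0.24 (SE, adjusted p = 0.000103, edgeR). None of these 4 ranges overlapped between the sources. Itga1, Col1a2, Col1a1 and Col22a1, a collagen of tissue junctions, were higher by 3.01 ± 0.91, 3.34 ± 0.76, 2.94 ± 0.97 and 2.68 ± 0.56 (SE).

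Lower in granule cells than in mossy cells were Itga3 at -1.90 ± 0.31, Itga2b at -3.09 ± 0.64, Col19a1 at -1.57 ± 0.28, Col9a2 at -2.76 ± 0.78 and Col23a1 at -1.46 ± 0.45 on the log2 scale (SE). The other 2, Col17a1 and Itgae, had 0 counts in all 4 granule-cell vehicle libraries, which allows up to 0.029 CPM over the group. They averaged 0.352 and 0.273 CPM in mossy cells, so they were at least 12.2-fold and 9.4-fold lower in those 4 libraries. These bounds cover counting error only. With fluoxetine Itgae averaged 0.287 ± 0.313 CPM in granule cells (SD, n = 4), while Col17a1 was again at 0. In the same contrast 8 of 9 endothelial, 7 of 9 microglia, 6 of 8 astrocyte and 7 of 8 oligodendrocyte markers were higher in granule cells.

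Granule cells against hippocampus gave 6 of 78 tested members higher and 6 lower, a share of 15.4%, beside 29.7% of 16124 genes, 16.5% higher and 13.2% lower. After the same correction, 9 members were higher and 6 lower, and the median over all genes was 0.29. Col4a2 had 13.9, 11, 26.7 and 8.28 CPM in granule cells, against 3.83 to 6.84 CPM in hippocampus, without overlap, a log2 difference of 1.53 ± 0.35 (SE, adjusted p = 0.00199, edgeR). Granule-cell vehicle library 3, the highest for Col4a2, also had 159.7 CPM of 9 endothelial markers, against 11 to 27.8 CPM in the other 3, and the part of those cells was not tested. Itgav and Itgb1 differed by 0.79 ± 0.22 (SE, adjusted p = 0.0076, edgeR) and 0.69 ± 0.22 (SE, adjusted p = 0.0193, edgeR). Col22a1, Itga11 and Itgb2 were the other 3 higher members, at 1.70 ± 0.40, 1.51 ± 0.41 and 2.18 ± 0.81 (SE). Without granule-cell vehicle library 3, Itgb1 was at 0.48 and Itgb2 at 1.03, and neither was called (adjusted p = 0.107 and 0.367, edgeR). Without granule-cell vehicle library 2, Itgb1 was at 0.57 and Itga11 at 1.04, and neither was called (adjusted p = 0.0686 and 0.0685, edgeR). The call of Itgb2 ended in 9 of 21 fits that left out 1 library. Itga4 and Itga8 did not pass here, at 0.53 ± 0.23 and 0.17 ± 0.28 (SE). Col19a1 was lower, with -0.80 ± 0.27 (SE, adjusted p = 0.0299, edgeR), a call that ended in 5 of 21 such fits. Also lower were Col9a2, whose call ended without hippocampus vehicle library 1, Col14a1, Col18a1, Col4a4 and Itgae. Itgae averaged 0.222 CPM in hippocampus, so it was at least 7.64-fold lower in the granule-cell vehicle libraries. Its mean in granule cells with fluoxetine, 0.287 CPM, was not below that of hippocampus under vehicle. Leaving out 1 library at a time gave 10 to 17 called members.

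**Figure D5:**
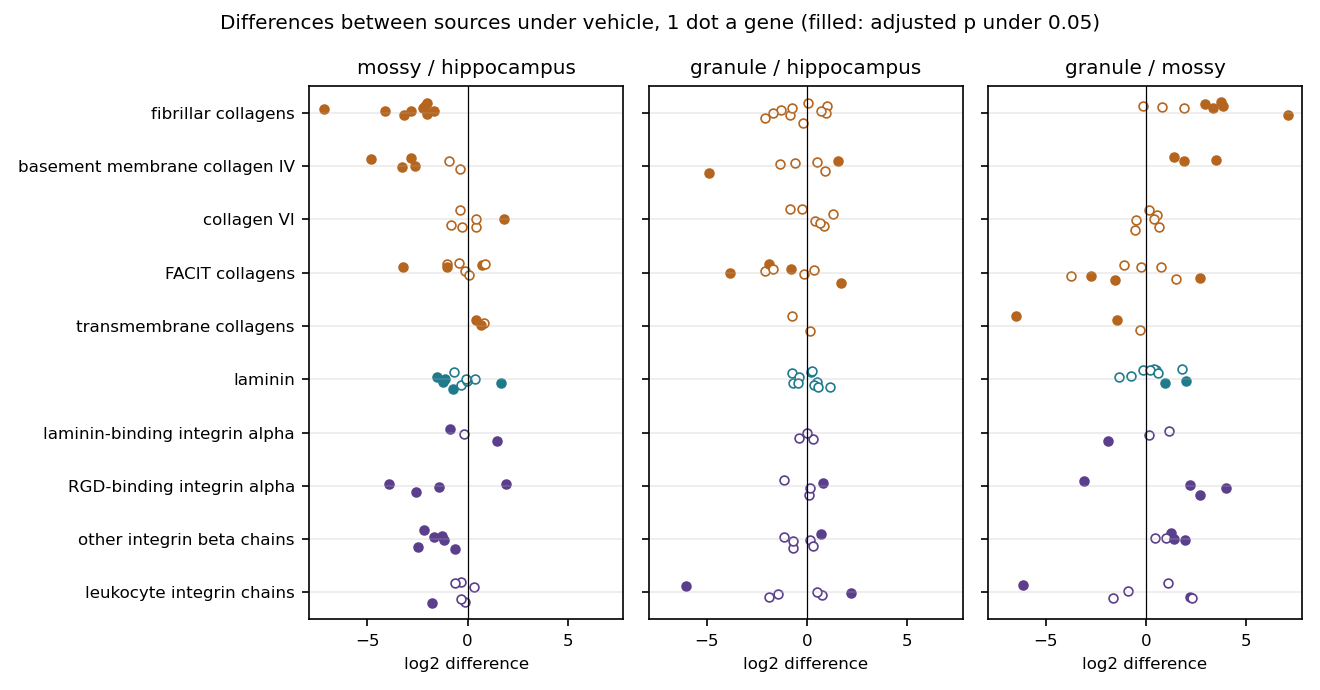
Log2 differences between sources under vehicle by class of chain, 1 dot a gene, filled where the adjusted p was under 0.05; the dots of Col3a1, Itgae and Col17a1 beyond 5 in size rest on groups with 0 counts. All 9 fibrillar collagens tested lie left of 0 for mossy cells over hippocampus, in a fit they entered through their hippocampus level.

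Genes that make, bind or cut this matrix were counted in the same fits, to be read beside the 15.5% of all genes that rose in hippocampus and the 8.05% in mossy cells. These lists, like the members, were chosen with earlier results of these data known, so their shares are descriptions. The length and GC correction and the fits that left out libraries were counted for the members only, not for these lists. Of the 22 member calls in hippocampus, 16 held after that correction and 5 without vehicle libraries 1, 2 and 4. Of 25 tested collagen synthesis enzymes 13 rose (52%) and 0 fell in hippocampus, led by Ppib, a collagen-folding isomerase, with 0.39 ± 0.08, the prolyl hydroxylase Leprel2 with 0.81 ± 0.17 and the procollagen protease Bmp1 with 0.92 ± 0.20 on the log2 scale (SE). In mossy cells 4 of 23 rose (17.4%), led by the lysyl hydroxylase Plod3 with 1.02 ± 0.20 (SE, adjusted p = 0.0033, edgeR) and the procollagen protease Adamts3 with 0.71 ± 0.15 (SE, adjusted p = 0.00528, edgeR). Other matrix glycoproteins and proteoglycans rose in 10 of 25 in hippocampus (40%) and 5 of 24 in mossy cells (20.8%), and 0 fell. Agrn, the basement membrane proteoglycan agrin, had 44.5, 50.6 and 52.7 CPM with fluoxetine, against 27.8, 32.2 and 34.7 CPM with vehicle in hippocampus, and 41.5, 46.2 and 59.3 CPM with fluoxetine, against 23.6, 31.8 and 36.7 CPM with vehicle in mossy cells. Neither pair of groups overlapped, and the log2 changes of Agrn were 0.64 ± 0.06 (SE, adjusted p = 0.000116, edgeR) and 0.62 ± 0.11 (SE, adjusted p = 0.00239, edgeR). Fn1, fibronectin, rose by 0.68 ± 0.11 in hippocampus, and Ncan, a proteoglycan of brain matrix, by 0.67 ± 0.14 in hippocampus and 0.78 ± 0.15 in mossy cells (SE).

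Other matrix receptors rose in 7 of 13 tested in hippocampus (53.8%) and 6 of 14 in mossy cells (42.9%), and 0 fell. Sdc3, a neuronal syndecan, rose by 0.51 ± 0.10 in hippocampus and 0.64 ± 0.13 in mossy cells, and Dag1, dystroglycan, a receptor of laminin and agrin, by 0.42 ± 0.09 and 0.52 ± 0.11 on the log2 scale (SE). Of 28 integrin adhesion and signalling genes 4 rose and 3 fell in hippocampus, and 3 of 27 rose in mossy cells (11.1%). Their called share in hippocampus, 25%, was below the 30.2% of all genes. Crk, an adaptor, changed by -0.27 ± 0.04 (SE, adjusted p = 0.000882, edgeR) in hippocampus, and Vcl, vinculin, by 0.40 ± 0.09 (SE, adjusted p = 0.00402, edgeR). Matrix proteases and inhibitors rose in 7 of 17 in hippocampus (41.2%) and 4 of 16 in mossy cells (25%), and 0 fell, led in both by the metalloprotease Adam15, with 0.63 ± 0.09 (SE, adjusted p = 0.000552, edgeR) and 0.83 ± 0.13 (SE, adjusted p = 0.00123, edgeR). In granule cells 0 genes of these 5 lists were called with edgeR, and 7 had an unadjusted p under 0.05, without a share of all genes beside it.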

How the data were processed

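RNA was purified by TRAP from hippocampus and sequenced, per the labels' protocols. The deposited values are whole-number read counts per gene symbol, made by the authors with STAR 2.5.2b and HTSeq 0.7.2 on GRCm38, per the submitters' processing notes, and not normalized. The annotation and strand setting are not given in the sources used here. Libraries were grouped by the labels' source and treatment. Counts were fitted over all genes by the quasi-likelihood test of edgeR 4.0.16 (R 4.3.3; TMM factors, default expression filter); p-values are two-sided, adjusted by Benjamini-Hochberg and called under 0.05. Contrasts between sources used all 4 groups of both sources. Alternatives were limma 3.58.1, DESeq2 1.42.0, other scaling and filters, a correction for GC content and length (GENCODE M21), the replicate number as a block, and leaving out libraries. Same-numbered mossy-cell and hippocampus libraries deviated together (lowest r = 0.144 with vehicle and 0.103 with fluoxetine), so those numbers were taken to pair libraries. Unless the replicate block is named, the values given for mossy cells against hippocampus come from the fit without that pairing. The rule was an r over 0.1 in every pair; granule cells with fluoxetine and vehicle just missed it (0.0938 to 0.254, 3 of 4 best with their own number) and, like the remaining groups, were not taken as paired. No 2 libraries agreed within sampling noise (lowest chi-square per degree of freedom 6.59). Scripts were tested on simulated data. The members and lists were chosen with earlier results of these data known. Named were the called members with the largest changes at a mean of at least 1 CPM, else those with the smallest p, and a list of main chains; other called members named in the text were added after their values were seen. One member is counted but not reported singly here. A floor of 3 counts over the group, scaled to total counts without TMM factors, bounds a group at 0, and covers counting error only.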

Additional observations from a re-analysis of the deposited data

Results flagged for a closer look

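In 228 groups of 4 to 7 libraries of 38 named members, 26 had a library far from the others of its group by Dixon's test at the 95% level, which chance gives in about 1 group in 20. Each value is given with the nearest other library of its group, and no cause was tested. Hippocampus fluoxetine library 4 was high in 6 cases, with 44.0 CPM of Itgav (nearest 28.8), 36.4 CPM of Lamc1 (nearest 25.4), 13.5 CPM of Lama2 (nearest 7.20), 25.4 CPM of Itgam (nearest 7.602), 3.65 CPM of Itgb2 (nearest 1.46), 20.3 CPM of Itgb5 (nearest 5.98). Mossy-cell fluoxetine library 4 was high in 6 cases, with 0.822 CPM of Col1a2 (nearest 0.348), 16.6 CPM of Itgam (nearest 5.62), 7.21 CPM of Itgb5 (nearest 3.11), 7.75 CPM of Itga6 (nearest 3.03), 1.49 CPM of Col9a3 (nearest 0.360), 0.601 CPM of Col27a1 (nearest 0.0655). Those 2 libraries also held the highest microglia and astrocyte marker sums of their groups. Mossy-cell fluoxetine library 6 was high with 2.09 CPM of Itga1 (nearest 0.822) and 5.30 CPM of Col9a2 (nearest 1.77), and low with 20.3 CPM of Col25a1 (nearest 31.9). Among other fluoxetine libraries of mossy cells, library 2 was high with 0.360 CPM of Col8a1 (nearest 0.137) and library 7 with 5.60 CPM of Col22a1 (nearest 1.64). Mossy-cell vehicle libraries were high with 6.45 CPM of Itga2b (nearest 3.54) and 0.565 CPM of Col27a1 (nearest 0.124) in library 1, 0.871 CPM of Col11a1 (nearest 0.246) in library 2 and 2.998 CPM of Col6a1 (nearest 1.01) in library 5. In hippocampus, fluoxetine library 2 was high with 3.33 CPM of Col3a1 (nearest 1.48), and vehicle library 2 was low with 19.2 CPM of Col25a1 (nearest 26.6). In granule cells, fluoxetine library 4 was high with 51.6 CPM of Col4a2 (nearest 18.1) and fluoxetine library 2 with 5.70 CPM of Col8a1 (nearest 1.10), and vehicle library 3 was low with 12.7 CPM of Lamb1 (nearest 17.9).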

How the results depend on the processing

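Leaving out 1 library at a time gave 18 to 24 called members in hippocampus, 3 to 8 in mossy cells and 0 to 0 in granule cells for fluoxetine against vehicle. The ranges were 41 to 49 for mossy cells against hippocampus, 10 to 17 for granule cells against hippocampus and 23 to 32 for granule against mossy cells. For the differences between fluoxetine changes they were 0 to 0 (mossy cells minus hippocampus), 0 to 5 (granule cells minus hippocampus) and 0 to 2 (granule minus mossy cells). The low of 3 in mossy cells came on dropping vehicle library 4, vehicle library 6 or fluoxetine library 4, and the high of 8 on dropping fluoxetine library 7. With the replicate block, the counts were 20 in hippocampus, 3 in mossy cells and 0 in granule cells, 3 for granule cells against hippocampus and 18 for granule against mossy cells. Mossy cells against hippocampus, where numbers paired libraries, gave 49 with the replicate block, beside 47 without. DESeq2 called 1 member in granule cells, 3 in granule cells minus hippocampus and 1 in granule minus mossy cells. Fluoxetine calls in mossy cells were 2 without fluoxetine libraries 2 and 4, 0 without vehicle libraries 1, 2 and 4, and 0 without vehicle libraries 3, 5 and 6. Calls in hippocampus were 6 without vehicle libraries 1, 2 and 4, an alternative chosen after seeing the data. Mossy cells against hippocampus gave 27 without vehicle libraries 1, 2 and 4 of both sources, likewise added later, and granule against mossy cells 16 without mossy-cell vehicle libraries 3, 5 and 6. These last 6 counts rest on fewer libraries, and the cause of the other moves was not tested. Except after the GC content and length correction, calls over all genes are not given beside these counts. Changes that turned sign were all uncalled but that of Col8a1 in hippocampus (0.0071 without vehicle libraries 1, 2 and 4). With 1 library left out, log2 changes ranged in granule cells over Col4a2 -0.12 to 1.06, Col1a1 -0.27 to 0.45, Col25a1 -0.16 to 0.36, Lamb1 -0.067 to 0.28, Itga8 -0.16 to 0.64, and in mossy cells over Col4a1 -0.14 to 0.41, Col19a1 -0.18 to 0.041, Itga8 -0.044 to 0.49, Itgb8 -0.016 to 0.57. In granule cells Col1a1 was -0.15 after the GC content and length correction and -0.13 with the replicate block, and Col25a1 was -0.058 with limma-voom. In mossy cells Col4a1 was -0.042 with limma-voom and -0.10 after that correction. Without mossy-cell fluoxetine libraries 2 and 4, Col4a1 was -0.15, Col6a1 -0.093, Itga8 -0.034 and Itgb8 -0.094, and Col19a1 was 0.026 without vehicle libraries 3, 5 and 6. After the GC content and length correction 1674 of 4780 called genes were higher in hippocampus, against 2411 of 4705 without it, and the members gave 14 higher and 3 lower.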
